A study of Mus musculus with 93 samples.

Results

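C10:0, given as the synthetic triglyceride tridecanoin, was compared with its control in the liver of mice that lack PPARα. The comparison used the 5 arrays of PPARα −/− mice given C10:0 and the 4 arrays of PPARα −/− mice that received the vehicle in the same later run, which together make 9 of the 93 arrays of the series. Arrays were put in their groups by their titles, and all probesets other than the controls of the array itself were read. Each array held the liver RNA of 1 mouse. The PPARα −/− mice were males of the substrain 129S4/SvJae and carried no other allele or agent that the labels name, and the labels place them at 8 to 24 weeks of age. Wild-type mice (WT; 129S1/SvImJ), 5 with C10:0 and 4 with the vehicle, were treated in the same way and served to compare the genotypes, so that genotype and substrain cannot be told apart. All mice had eaten a purified run-in diet in which olive oil stood in for corn oil, were fasted for 4 hours and received 400 µl of the triglyceride or of the carboxymethyl cellulose vehicle by gavage, and the livers were taken 6 hours later. The vehicle held no fat, so a response to C10:0 cannot be told apart from a response to a fat load as such, and the PPARα −/− mice lacked the receptor in all cells, not only in hepatocytes.

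PPARα is a nuclear receptor of the hepatocyte that binds fatty acids and raises the genes that oxidize them, above all during fasting. C10:0, capric acid, is a saturated medium-chain fatty acid. Medium-chain fatty acids largely reach the liver through the portal vein rather than in chylomicrons, and they enter mitochondria with little need of the carnitine shuttle that carries long chains. In the absence of PPARα, other regulators of liver genes remain, among them CAR and PXR, which respond to foreign chemicals, the glucocorticoid receptor, the clock, SREBP-1 and the cytokine signals that raise acute phase proteins.

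Values are log2 signals of 1 probeset, changes are differences of log2 means between C10:0 and control with their standard error (SE), and 1 unit is a doubling. A gene is said to have risen or fallen where the adjusted p of limma's moderated test was under 0.05. Per-array values are given in the order of the replicate numbers, those of C10:0 first and those of the controls after "against". The median log2 signal of the 9 arrays lay between 7.26 and 7.38, against 7.08 to 7.39 over all 93 arrays. In the PPARα −/− livers the 3 probesets of Ppara averaged 10.40, 9.26 and 7.50, and in WT livers 11.21, 10.58 and 9.06. They were thus lower, not absent, in the PPARα −/− livers, and whether these probesets lie in the part deleted by the targeting is not given in the sources used here.

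The 9 livers did not form 2 tight groups. Over the probesets that passed when an array was left out, C10:0 replicates 1, 2 and 5 lay at a median distance of 0.83, 0.73 and 0.83 from the control mean in the direction of the C10:0 change, replicate 4 at 0.47 and replicate 3 at 0.32. Among the controls, replicates 1, 2 and 3 lay at 0.17, 0.14 and 0.16 and replicate 4 at 0.34. C10:0 replicate 3 and control replicate 4 therefore stood between the groups, at 46.3% and 51.2% of the distance of the (other) C10:0 arrays. Each array was measured over its own probesets and from the mean of the (other) controls, so these distances are not on the same scale. Neither was removed.

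**Figure D1:**
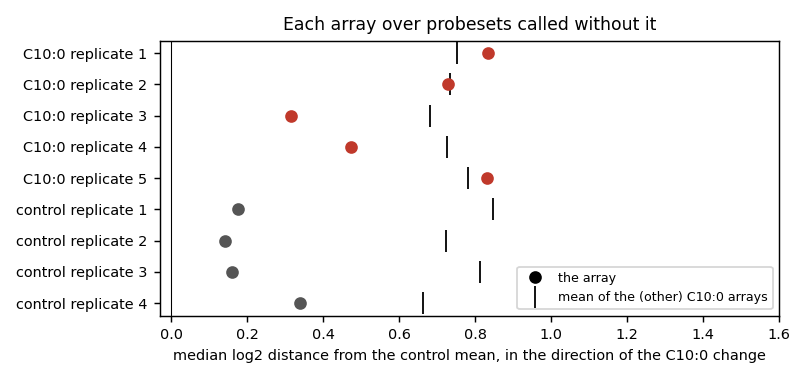
Position of each PPARα −/− array along the C10:0 change. The x axis is the median log2 distance from the mean of the (other) controls over the probesets with an adjusted p under 0.05 in the fit without that array, signed so that the C10:0 direction is positive. Points are arrays (red, C10:0; grey, control) and bars the mean of the (other) C10:0 arrays. C10:0 replicate 3 at 0.32 and control replicate 4 at 0.34 lie between the groups.

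C10:0 changed many genes in livers without PPARα. Of 11412 probesets, 367 rose and 386 fell, and of 6654 genes, each taken at its brightest probeset, 201 rose (3.02%) and 262 fell (3.94%). At the unadjusted p under 0.01 that the study used as its threshold, 524 probesets were higher and 714 lower. Of the probesets that passed the adjusted threshold, 452 had changed by at least 1.5-fold. In 214 genes (3.22%) all 5 C10:0 arrays lay above all 4 controls and in 345 (5.18%) below, and 124 and 147 of these also passed the test. The median change over all genes was -0.06. The count rested on the estimate of error. With the error taken from these 9 arrays alone rather than from all 93, 138 probesets passed (83 rose, 55 fell), and over the fits that left out 1 of the 9 arrays the count ran from 382 without C10:0 replicate 5 to 1024 without C10:0 replicate 3. It was 388 without C10:0 replicate 1, 491 without replicate 2 and 686 without replicate 4, and 417, 472, 448 and 922 without control replicates 1, 2, 3 and 4. Of the 69 genes named below as changed, the 22 that also passed with the error of the 9 arrays alone were Cyp2b10, Sult1d1, Saa1, Saa2, Crp, Fkbp5, Ccn1, Crat, Hacl1, Irs1, Tm4sf1, Wfdc2, Dixdc1, Cdt1, Sult1c2, Fgfrl1, Gmnn, Serpina4-ps1, Scara5, Taf2, Fmo2 and Caap1.

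Cyp2b10, a cytochrome P450 that is the textbook target of CAR, showed the largest rise of all genes whose arrays did not overlap. Its log2 signal was 10.55, 10.07, 5.95, 9.64 and 9.50 in the C10:0 livers and 3.01, 2.52, 2.81 and 3.35 in the controls. Every control signal was among the lowest of its array, so the rise is given as at least 18.9-fold (adjusted p = 4.74e-05), and C10:0 replicate 3 was far below the other 4 treated livers. Cyp3a13, another cytochrome P450, measured 12.43, 12.35, 11.77, 11.63 and 12.11 after C10:0 and 11.23, 11.07, 10.28 and 11.11 in controls and rose by 1.13 ± 0.23 (adjusted p = 0.00123). The sulfotransferase Sult1d1 measured 12.27, 12.31, 11.49, 11.98 and 11.82 against 10.67, 10.80, 11.11 and 11.13, a rise of 1.05 ± 0.21 (adjusted p = 8.74e-04). In all 3 genes the lowest treated liver stood above the highest control. Of the 17 measured targets of CAR and PXR, these 3 rose, none fell and 14 did not pass, where 3.02% of all genes rose. The median change of the list was 0.27, against -0.06 over all genes. Cyp3a11, the usual marker of PXR, had a change of 0.18 (adjusted p = 0.553), Cyp2c29 one of 0.35 (adjusted p = 0.12), and the receptors Nr1i3 (CAR) and Nr1i2 (PXR) ones of 0.26 (adjusted p = 0.494) and 0.84 (adjusted p = 0.0846). With each of the 9 arrays left out in turn, the calls of Cyp2b10, Cyp3a13 and Sult1d1 held each time.

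**Figure D2:**
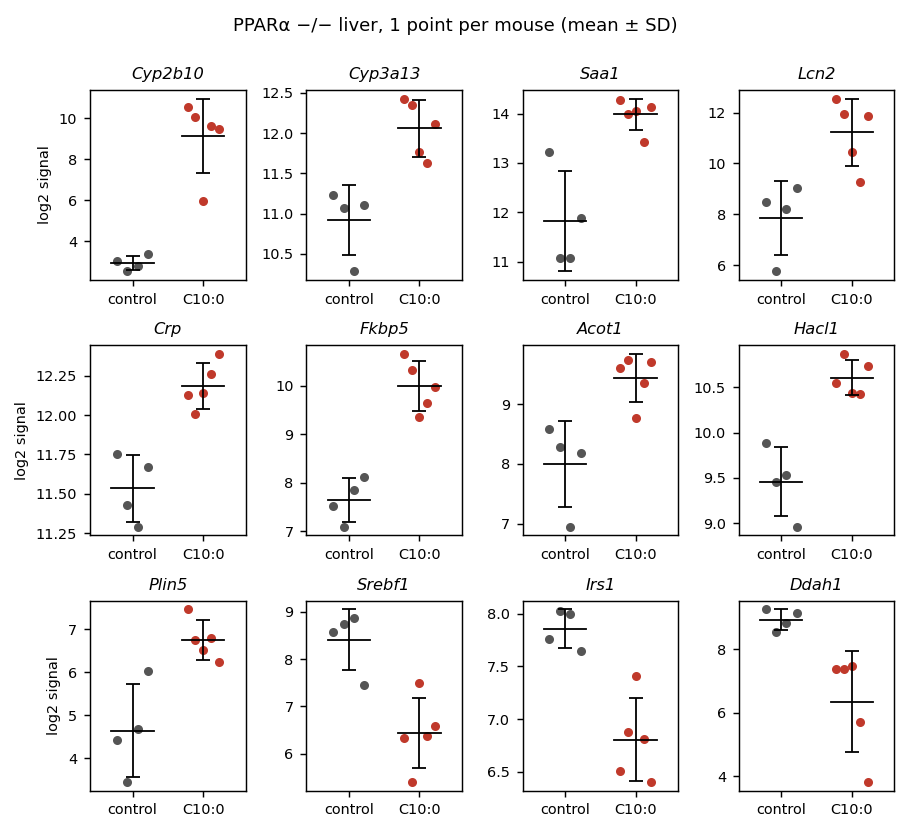
Log2 signal (y axis, a scale for each gene) of 12 genes in PPARα −/− liver, control (grey, n = 4) and C10:0 (red, n = 5), with 1 point per mouse, the mean as a line and the SD as a bar. Groups do not overlap except for Srebf1, where C10:0 replicate 3 (7.49) lies just above control replicate 4 (7.46), and in Cyp2b10 1 treated liver (5.95) lies between the rest and the controls.

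Acute phase proteins, which the liver secretes in larger amounts in inflammation, were the list with the most rises. Of 26 measured members 10 rose, none fell and 16 did not pass, where 3.02% of all genes rose and 3.94% fell, the median change was 0.74, and 24 of the 26 were higher after C10:0. In 9 of the 26 all treated livers lay above all controls, against 3.22% of all genes, and 5 of these 9 were among the 10 that rose. Serum amyloid A1 and A2 are near-identical proteins of high-density lipoprotein encoded by neighbouring genes, and the shared signal of their probesets cannot be split with certainty. Their promoters are shown because both genes rose. In the 250 bases before each start (RefSeq, GRCm38.p6, Saa1 at chr7:46742981-46743230 on the minus strand and Saa2 at chr7:46751583-46751832 on the plus strand) 238 of 251 aligned positions were identical (94.8%), and capitals mark the bases that differ or have no partner:
Saa1: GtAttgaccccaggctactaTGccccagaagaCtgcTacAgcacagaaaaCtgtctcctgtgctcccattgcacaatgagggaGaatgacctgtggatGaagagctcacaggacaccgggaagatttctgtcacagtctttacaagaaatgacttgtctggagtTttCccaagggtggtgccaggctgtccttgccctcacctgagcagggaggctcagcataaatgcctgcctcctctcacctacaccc
Saa2: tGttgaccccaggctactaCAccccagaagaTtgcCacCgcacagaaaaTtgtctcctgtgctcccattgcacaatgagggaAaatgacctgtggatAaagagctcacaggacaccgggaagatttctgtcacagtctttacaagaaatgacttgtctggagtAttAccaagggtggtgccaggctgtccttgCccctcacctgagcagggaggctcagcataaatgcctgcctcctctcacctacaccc

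Saa1 measured 14.27, 14.00, 14.06, 13.43 and 14.14 after C10:0 and 13.23, 11.08, 11.07 and 11.89 in controls, a 4.48-fold rise of 2.16 ± 0.70 (adjusted p = 0.0466). Saa2 measured 14.17, 13.74, 13.71, 11.70 and 13.91 against 11.89, 9.05, 9.40 and 10.12, a rise of 3.33 ± 0.95 (adjusted p = 0.0223). Control replicate 1 had the highest control signal of both and, for Saa2, lay above C10:0 replicate 4, the lowest treated liver. Saa4, the serum amyloid A of the unstimulated liver, measured 12.72, 12.53, 12.55, 12.62 and 12.67 against 12.30, 11.73, 10.89 and 11.38 and rose by 1.04 ± 0.22 (adjusted p = 0.0019). Lcn2, which binds the iron carriers of bacteria, measured 12.55, 11.94, 10.47, 9.27 and 11.86 against 8.49, 5.76, 8.20 and 9.02, the largest change of the list at 3.35 ± 1.07 (adjusted p = 0.0424). C-reactive protein (Crp) measured 12.13, 12.01, 12.14, 12.26 and 12.39 against 11.75, 11.43, 11.29 and 11.67, with no overlap and a rise of 0.65 ± 0.15 (adjusted p = 0.0052). The lipopolysaccharide-binding protein Lbp measured 10.73, 10.35, 10.08, 9.58 and 10.70 against 9.85, 9.04, 8.48 and 8.86 and rose by 1.23 ± 0.30 (adjusted p = 0.00764), and here C10:0 replicate 4 lay below control replicate 1. Il1r1, the receptor of interleukin 1, is counted among the 10 rises of the list but is not a secreted acute phase protein. It measured 9.17, 7.82, 6.52, 7.45 and 8.37 against 6.02, 5.55, 5.08 and 6.27 and rose by 2.14 ± 0.61 (adjusted p = 0.0212). The others were haptoglobin (Hp), which binds free haemoglobin, at 0.52 ± 0.14 (adjusted p = 0.02), the protease inhibitor Serpina3n at 0.85 ± 0.22 (adjusted p = 0.0121) and the fibrinogen chain Fgb at 0.26 ± 0.083 (adjusted p = 0.0453).

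Many of these calls depended on single livers. When 1 array at a time was left out, the calls of Saa4 and Crp held each time. That of Lbp was lost without control replicate 3 (estimates of 1.04 to 1.5), that of Serpina3n was lost without C10:0 replicate 1 or control replicate 3 (estimates of 0.71 to 1.0) and that of Hp was lost without C10:0 replicate 1 or 5 or control replicate 2 (estimates of 0.38 to 0.63). That of Il1r1 was lost without C10:0 replicate 1 or 5 or control replicate 2 or 3 (estimates of 1.81 to 2.47), that of Saa2 was lost without C10:0 replicate 1 or 5 or control replicate 2 or 3 (estimates of 2.98 to 3.92) and that of Lcn2 was lost without C10:0 replicate 1, 2 or 5 or control replicate 1, 2 or 3 (estimates of 2.65 to 3.84). That of Fgb was lost without C10:0 replicate 1, 2 or 5 or control replicate 2, 3 or 4 (estimates of 0.18 to 0.35) and that of Saa1 was lost without C10:0 replicate 1, 2, 3 or 5 or control replicate 2, 3 or 4 (estimates of 1.92 to 2.63). The list had between 3 and 10 rises over those 9 fits, no fall in any of them, and 3 rises with the error of the 9 arrays alone. None of 26 complement and coagulation genes and none of 27 interferon-induced genes passed the test, with median changes of -0.02 and 0.17. Slc39a14, a zinc and iron importer of the hepatocyte, measured 10.61, 10.40, 9.96, 9.95 and 10.36 after C10:0 and 9.89, 9.31, 8.68 and 9.18 in controls and rose by 0.99 ± 0.25 (adjusted p = 0.00813). Hamp2, a hepcidin gene, measured 10.52, 10.06, 10.80, 9.82 and 3.13 against 11.38, 11.85, 11.49 and 11.97. It fell by 2.81 on the log2 scale, SE 0.87 (adjusted p = 0.0366), and replicate 5 lay far below the other treated livers, without which the change was -1.37. In the 9 fits that each left out 1 array, the call of Slc39a14 was lost without control replicate 3 (estimates of 0.80 to 1.2) and that of Hamp2 was lost without C10:0 replicate 5 or control replicate 1, 2, 3 or 4 (estimates of -3.29 to -1.37).

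**Figure D3:**
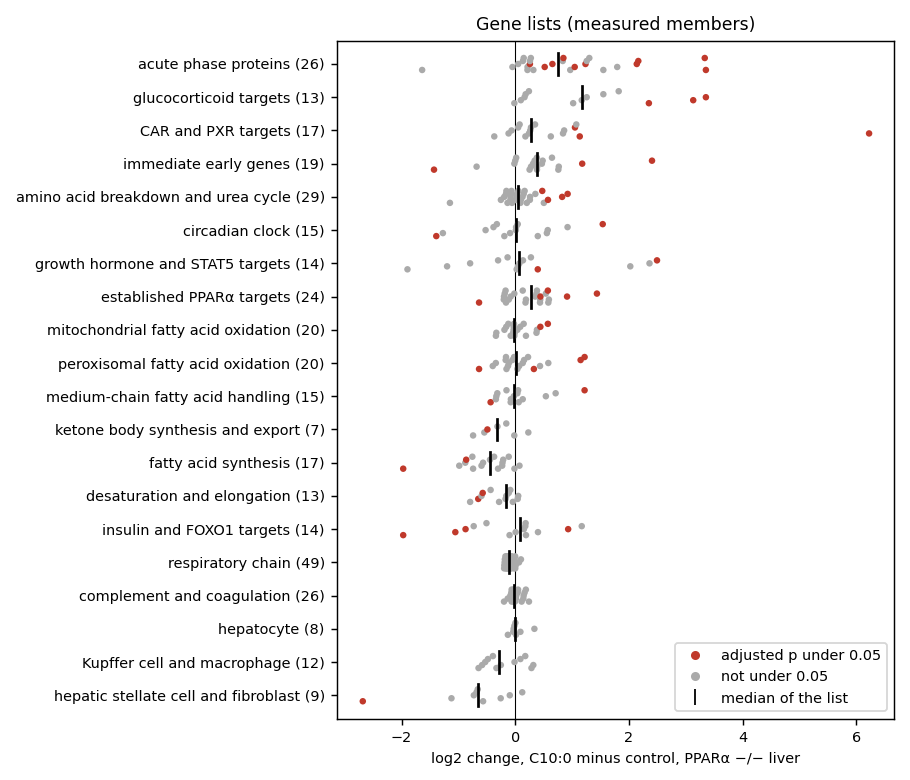
Log2 change with C10:0 in PPARα −/− liver (x axis) for every measured member of 20 gene lists (y axis, number of members in brackets). Each point is a gene, red where its adjusted p was under 0.05, and the black bar is the median of the list. Acute phase proteins have 10 red points to the right and none to the left, and the 49 respiratory chain genes lie close to 0. Points of genes with a group among the lowest signals, such as Cyp2b10 at the far right, are fitted values and not measured sizes.

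Targets of the glucocorticoid receptor had the highest median change of the lists shown, 1.17, against -0.06 over all genes. Of 13 members 3 rose, none fell and 12 were higher, where 3.02% of all genes rose and 3.94% fell. The list had 1 rise with the error of the 9 arrays alone or with only the later-run arrays. It had 1 to 3 rises when 1 array was left out. Fkbp5, a cochaperone of the receptor and one of its standard targets, measured 10.66, 10.33, 9.35, 9.65 and 9.98 after C10:0 and 7.51, 7.09, 7.85 and 8.12 in controls. It rose 5.09-fold, by 2.35 ± 0.38 (adjusted p = 5.18e-05), with the lowest treated liver well above the highest control. Cdkn1a, the cell cycle inhibitor p21, measured 9.33, 8.59, 6.01, 8.72 and 7.14 against 3.93, 4.14, 4.74 and 6.52 and rose by a fitted 3.13 ± 0.91 (adjusted p = 0.0243). Here C10:0 replicate 3 lay below control replicate 4, the only control that was not among the lowest signals of its array. Lcn2, given above, was the third. Members that did not pass included Tsc22d3 with a change of 0.24 (adjusted p = 0.72), Tat with 0.10 (adjusted p = 0.883) and Pck1 with 0.18 (adjusted p = 0.437), which are also textbook targets. Socs2, an inhibitor of growth hormone signalling and itself a target of STAT5, measured 8.30, 8.01, 7.71, 8.03 and 10.05 against 5.21, 7.18, 5.46 and 5.86 and rose by 2.49 ± 0.81 (adjusted p = 0.0454). All treated livers lay above the controls, and replicate 5 above all other treated livers. With each of the 9 arrays left out in turn, the call of Fkbp5 held each time. That of Cdkn1a was lost without C10:0 replicate 1, 2 or 4 or control replicate 1, 2 or 3 (estimates of 2.79 to 3.69) and that of Socs2 was lost without C10:0 replicate 1, 2, 4 or 5 or control replicate 1, 3 or 4 (estimates of 2.08 to 2.91).

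Among genes of fatty acid oxidation most did not pass the test, and those that did were rises more often than falls. Over all genes 3.02% rose and 3.94% fell. Of 24 measured PPARα targets 4 rose and 1 fell, with a median change of 0.27. Of 20 genes of mitochondrial oxidation 2 rose and none fell (median -0.02), of 20 of peroxisomal oxidation 3 rose and 1 fell (median 0.01), and of 15 that handle medium-chain fatty acids 1 rose and 1 fell (median -0.03). Of 10 genes of omega-oxidation and of 12 of peroxisome biogenesis none rose and 1 each fell. With the error of the 9 arrays alone, no PPARα target and no mitochondrial gene passed, while 2 peroxisomal genes and 1 medium-chain gene rose. With 1 array left out, 0 to 4 mitochondrial genes passed. Acadm, the medium-chain acyl-CoA dehydrogenase that starts the oxidation of C10:0, measured 11.38, 11.46, 11.29, 11.30 and 11.26 after C10:0 and 11.69, 11.26, 11.30 and 11.42 in controls, a change of -0.08 (95% interval -0.24 to 0.07, adjusted p = 0.57). Acot1, a PPARα target that encodes a cytosolic thioesterase, measured 9.61, 9.74, 8.77, 9.36 and 9.71 against 8.58, 8.28, 6.95 and 8.18. It rose 2.70-fold, by 1.44 ± 0.35 (adjusted p = 0.00702), without overlap. Hacl1, a lyase of peroxisomal alpha-oxidation, measured 10.55, 10.87, 10.44, 10.43 and 10.74 against 9.88, 9.46, 9.53 and 8.96 and rose by 1.15 ± 0.23 (adjusted p = 0.00114). Carnitine acetyltransferase (Crat), which moves short acyl groups onto carnitine, measured 6.21, 6.42, 6.05, 5.80 and 6.12 against 5.22, 4.80, 5.35 and 4.24 and rose by 1.22 ± 0.29 (adjusted p = 0.00569), whereas its other probeset had a change of 0.14. In none of these 3 did the groups overlap.

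Plin5, a coat protein that ties lipid droplets to mitochondria, measured 7.47, 6.76, 6.52, 6.80 and 6.23 after C10:0 and 4.42, 3.44, 4.67 and 6.04 in controls and rose by a fitted 2.11 ± 0.41 (adjusted p = 7.25e-04). Every control but replicate 4 was among the lowest signals of its array, so no fold is given. Angptl4, a secreted inhibitor of lipoprotein lipase, measured 9.91, 9.85, 9.58, 10.04 and 9.87 against 8.26, 8.69, 9.13 and 9.68 and rose by 0.91 ± 0.22 (adjusted p = 0.00702), with control replicate 4 above C10:0 replicate 3. Smaller rises were those of the carnitine carrier Slc25a20, 0.57 ± 0.14 (adjusted p = 0.0072), and of the transcription factor Creb3l3, 0.44 ± 0.089 (adjusted p = 0.00114). Acnat2, which joins fatty acids to amino acids, rose by 1.92 ± 0.61 (adjusted p = 0.0404). The falls were those of the peroxisomal thiolase Acaa1b, -0.64 ± 0.19 (adjusted p = 0.025), of the thioesterase Acot13, -0.44 ± 0.14 (adjusted p = 0.0469), and of Bdh1, which makes 3-hydroxybutyrate, -0.49 ± 0.15 (adjusted p = 0.039). Bdh1 was the sole change among 7 genes of ketone body synthesis and export (median -0.32). Classical PPARα targets that did not pass were Ehhadh with -0.16 (95% interval -0.64 to 0.32, adjusted p = 0.737) and Pdk4 with -0.20 ± 0.65 (adjusted p = 0.895). Cyp4a14 and Fgf21 were among the lowest signals of every array in both groups and no change is given for them. Lpin2, a phosphatidate phosphatase, had 0.51 (95% interval 0.07 to 0.95, adjusted p = 0.152). When 1 array at a time was left out, the calls of Hacl1, Crat, Plin5 and Creb3l3 held each time. That of Acot1 was lost without control replicate 3 (estimates of 1.08 to 1.63), that of Angptl4 was lost without control replicate 1 (estimates of 0.68 to 1.16) and that of Slc25a20 was lost without control replicate 3 (estimates of 0.40 to 0.68). That of Acaa1b was lost without C10:0 replicate 2 or 5 or control replicate 1 or 2 (estimates of -0.88 to -0.48), that of Acot13 was lost without C10:0 replicate 1, 2 or 5 or control replicate 1, 2, 3 or 4 (estimates of -0.51 to -0.36) and that of Bdh1 was lost without C10:0 replicate 1, 2, 4 or 5 or control replicate 1, 3 or 4 (estimates of -0.60 to -0.39). That of Acnat2 was lost without C10:0 replicate 1, 2 or 5 or control replicate 1, 2, 3 or 4 (estimates of 1.60 to 2.18).

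Of 17 genes of fatty acid synthesis 2 fell, none rose and 15 did not pass, where 3.94% of all genes fell and 3.02% rose. Of the 17, 16 had a mean below the controls, with a median of -0.45 against -0.06 over all genes. With median centring or quantile normalization 1 of them fell, and with the error of the 9 arrays alone none did. Srebf1, which encodes SREBP-1, the main activator of lipogenic genes, measured 6.34, 5.40, 7.49, 6.37 and 6.58 after C10:0 and 8.57, 8.74, 8.87 and 7.46 in controls. It fell 3.93-fold, by 1.97 on the log2 scale (SE 0.41, adjusted p = 0.00129), and the groups met where C10:0 replicate 3 lay just above control replicate 4. Acetyl-CoA carboxylase (Acaca) measured 6.89, 7.13, 7.73, 7.09 and 7.22 against 7.55, 7.99, 9.24 and 7.53, a change of -0.86 ± 0.28 (adjusted p = 0.0437), in which control replicate 3 stood far above the other controls. Fatty acid synthase (Fasn) measured 8.51, 8.58, 8.47, 8.39 and 8.33 against 8.20, 8.44, 10.54 and 8.13 and did not pass, at -0.37 ± 0.37 (adjusted p = 0.593), and the same control replicate 3 was the sole liver above 9. The desaturase Scd1 had a change of -0.12 (95% interval -0.38 to 0.15, adjusted p = 0.655). Of 13 genes of desaturation and elongation 2 fell, Fads6 with -0.65 ± 0.20 (adjusted p = 0.0298) and the elongase Elovl5 with -0.57 ± 0.16 (adjusted p = 0.0214). Gpam, the mitochondrial enzyme that starts triglyceride assembly, changed by -0.57 ± 0.17 (adjusted p = 0.0293). None of 18 genes of cholesterol synthesis passed (median -0.02). In the 9 fits that each left out 1 array, the call of Srebf1 held each time. That of Fads6 was lost without C10:0 replicate 1 or 5 or control replicate 1 or 3 (estimates of -0.77 to -0.53), that of Elovl5 was lost without C10:0 replicate 1, 2 or 5 or control replicate 2 or 3 (estimates of -0.69 to -0.48) and that of Gpam was lost without C10:0 replicate 1, 2 or 5 or control replicate 3 (estimates of -0.67 to -0.35). That of Acaca was lost without C10:0 replicate 1, 2, 4 or 5 or control replicate 2 or 3 (estimates of -1.05 to -0.48).

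Insulin signalling and glycogen genes included some falls that held whichever array was left out. Irs1, the insulin receptor substrate, measured 6.51, 6.88, 7.41, 6.81 and 6.40 after C10:0 and 7.76, 8.03, 8.00 and 7.65 in controls and had a change of -1.06 ± 0.28 (adjusted p = 0.0124), so that its signal was about 2.08-fold lower with no overlap. Glycogenin (Gyg), the primer of glycogen, measured 5.26, 5.86, 6.10, 6.44 and 5.90 against 6.80, 6.80, 6.52 and 7.60, a change of -1.02 ± 0.23 (adjusted p = 0.00361). Sesn3, a FOXO target that acts on insulin signalling, had a change of -0.88 ± 0.22 (adjusted p = 0.00987), and Ppargc1b, a coactivator of SREBP-1 and of oxidative genes, one of -1.17 ± 0.35 (adjusted p = 0.0286). Trib1, a pseudokinase linked to plasma lipids, rose by 0.93 ± 0.27 (adjusted p = 0.0257). In all, 1 of 14 insulin and FOXO1 targets rose and 3 fell, and 1 of 11 glycogen genes rose and 2 fell, where 3.02% of all genes rose and 3.94% fell. The median changes were 0.08, with 8 of the 14 higher, and -0.26. With the error of the 9 arrays alone, 1 insulin and FOXO1 target fell and no glycogen gene passed. Among 29 genes of amino acid breakdown and the urea cycle 4 rose and none fell, including Aass of lysine breakdown with 0.82 ± 0.19 (adjusted p = 0.0043) and Gldc of the glycine cleavage system with 0.92 ± 0.26 (adjusted p = 0.022). The 49 respiratory chain genes held no change that passed, and 46 of them were lower by a small amount (median -0.11, against -0.06 over all genes). With each of the 9 arrays left out in turn, the calls of Irs1, Gyg and Aass held each time. That of Sesn3 was lost without C10:0 replicate 5 or control replicate 2 (estimates of -1.0 to -0.73), that of Gldc was lost without C10:0 replicate 1 or 2 or control replicate 2 or 4 (estimates of 0.79 to 1.05) and that of Ppargc1b was lost without C10:0 replicate 2 or 5 or control replicate 1 or 2 (estimates of -1.32 to -0.96). That of Trib1 was lost without C10:0 replicate 1, 2 or 5 or control replicate 2 (estimates of 0.69 to 1.14).

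Clock and immediate early genes moved in both directions. Cry1, a repressor of the clock, measured 7.42, 7.82, 6.89, 8.15 and 7.34 after C10:0 and 6.07, 6.36, 4.83 and 6.69 in controls and rose by 1.54 ± 0.45 (adjusted p = 0.0247) with no overlap. Dbp, a transcription factor that the clock drives in the liver, measured 9.11, 9.37, 11.03, 9.77 and 10.02 against 11.25, 11.68, 11.18 and 10.88 and had a change of -1.39 ± 0.40 (adjusted p = 0.024), with C10:0 replicate 3 above control replicate 4. They were the 2 of 15 clock genes that passed, where 3.02% of all genes rose and 3.94% fell. Nr1d1 had a change of -1.27 (adjusted p = 0.058). The Cry1 promoter is shown because it holds the E-box that CLOCK and BMAL1 bind, the element searched for in this list. Its 250 bases before the start (RefSeq, GRCm38.p6, chr10:85185055-85185304, minus strand) hold CACGTG once, in capitals, 60 to 55 bases before the start:
Cry1: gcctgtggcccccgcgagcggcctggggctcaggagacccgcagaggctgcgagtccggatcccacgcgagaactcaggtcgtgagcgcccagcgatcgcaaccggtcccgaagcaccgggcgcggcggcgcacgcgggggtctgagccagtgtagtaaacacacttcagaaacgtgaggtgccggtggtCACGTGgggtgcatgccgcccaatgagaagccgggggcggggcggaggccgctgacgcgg

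On either strand of such 250-base windows CACGTG was found in 1854 of 27025 genes (6.86%), and among 13 clock genes with a promoter in the table in Cry1, Ciart and Tef. Neither Ciart (0.01, adjusted p = 0.993) nor Tef (-0.52, adjusted p = 0.0955) passed. The D-box TTATGNAA was found in 3.63% of genes and, of the 13, in Noct alone, which did not pass. Egr1, an immediate early transcription factor, measured 9.84, 9.76, 9.29, 10.40 and 10.68 after C10:0 and 4.53, 9.15, 7.36 and 9.32 in controls and rose by 2.40 ± 0.73 (adjusted p = 0.0319). Its controls spanned nearly 5 units, with replicate 1 far below the others, and the rise was 1.39 without that liver. Klf10, a factor induced by TGF-β, rose by 1.18 ± 0.34 (adjusted p = 0.0246). Ccn1, a matricellular protein of the same list, measured 3.00, 3.08, 3.09, 2.64 and 3.09 against 3.98, 5.00, 3.83 and 4.83, and since every treated signal was among the lowest of its array its fall is given as at least 1.04-fold (adjusted p = 0.0163). When 1 array at a time was left out, the call of Ccn1 was lost without control replicate 2, that of Cry1 was lost without C10:0 replicate 2 or 4 or control replicate 1 or 3 (estimates of 1.15 to 1.77) and that of Klf10 was lost without C10:0 replicate 4 or 5 or control replicate 1 or 3 (estimates of 1.01 to 1.34). That of Dbp was lost without C10:0 replicate 1 or 2 or control replicate 1, 2 or 3 (estimates of -1.68 to -1.2) and that of Egr1 was lost without C10:0 replicate 1, 2, 4 or 5 or control replicate 1 or 3 (estimates of 1.39 to 2.98).

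The rule by size of change also named genes outside the lists described so far. Inhbb, the beta B subunit of activin and inhibin, measured 6.53, 5.03, 3.54, 4.46 and 7.44 after C10:0 and 2.18, 2.52, 2.50 and 3.33 in controls, where it was among the lowest signals, a rise of at least 1.41-fold (adjusted p = 0.00386). Serpina5, the protein C inhibitor, measured 5.42, 7.53, 4.18, 5.67 and 6.82 against 2.79, 2.85, 4.13 and 3.18, a rise of at least 2.02-fold (adjusted p = 0.00129). The pseudogene Serpina4-ps1, whose probesets may pick up related serpins, rose by 2.57 ± 0.72 (adjusted p = 0.02), and its other 2 probesets rose too. Taf2, a subunit of the general transcription factor TFIID, measured 8.88, 8.25, 7.07, 9.01 and 9.12 against 5.81, 6.47, 6.27 and 6.45 and rose by 2.21 ± 0.43 (adjusted p = 7.25e-04). Fmo2, a flavin monooxygenase, measured 6.52, 7.26, 5.95, 5.58 and 6.92 against 4.17, 3.74, 3.80 and 5.42 and rose by a fitted 2.17 ± 0.53 (adjusted p = 0.00762). For Fmo2, every control but replicate 4 was among the lowest signals of its array. The transporter Slc45a3 measured 7.27, 7.37, 6.53, 7.16 and 6.68 against 5.12, 3.57, 4.16 and 6.25 and rose by 2.23 ± 0.49 (adjusted p = 0.00267). Scara5, a ferritin receptor, rose by 2.32 ± 0.74 (adjusted p = 0.0424). Each of these genes had all treated livers above all controls, as the rule that named them required. In the 9 fits that each left out 1 array, the calls of Inhbb, Serpina5, Taf2, Fmo2 and Slc45a3 held each time. That of Serpina4-ps1 was lost without C10:0 replicate 1 or control replicate 3 (estimates of 2.37 to 2.78) and that of Scara5 was lost without C10:0 replicate 1, 2, 4 or 5 or control replicate 1, 2, 3 or 4 (estimates of 2.10 to 2.74).

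Among the falls, Ddah1, which breaks down the nitric oxide synthase inhibitor dimethylarginine, had the smallest adjusted p. It measured 7.39, 7.38, 7.49, 5.70 and 3.81 after C10:0 and 9.27, 8.54, 8.83 and 9.14 in controls, 6.03-fold lower at -2.59 ± 0.41 (adjusted p = 4.10e-05), its other 2 probesets fell as well, and replicates 4 and 5 were the lowest. Tm4sf1, a membrane protein of endothelial and epithelial cells, measured 4.67, 4.17, 5.39, 4.67 and 4.23 against 5.89, 6.24, 6.79 and 7.17, a fitted change of -1.90 ± 0.39 (adjusted p = 0.00139). Egln3, an oxygen-sensing prolyl hydroxylase, measured 3.38, 3.78, 5.05, 4.80 and 4.54 against 6.16, 5.44, 5.68 and 5.60, a fitted change of -1.41 ± 0.28 (adjusted p = 0.00106). For Tm4sf1, Egln3 and also Dixdc1, given below, every treated liver but replicate 3 was among the lowest signals of its array. Fgfrl1, a receptor-like protein of the FGF family, measured 5.94, 6.27, 6.76, 6.59 and 5.81 against 7.73, 7.71, 7.54 and 7.25, a change of -1.29 ± 0.24 (adjusted p = 3.99e-04). Geminin (Gmnn), an inhibitor of DNA replication licensing, measured 6.55, 6.11, 6.91, 6.30 and 6.40 against 7.78, 7.94, 7.89 and 7.29, a change of -1.27 ± 0.29 (adjusted p = 0.00361). Its partner Cdt1 also passed (adjusted p = 0.0181) but was among the lowest signals in both groups, so no size is given. The treated signals of the sulfotransferase Sult1c2 and of Wfdc2 were among the lowest of their arrays, with falls of at least 1.68-fold (adjusted p = 0.00448) and 1.21-fold (adjusted p = 0.00813). Fbxo21, Dixdc1 and Dclre1a, a DNA crosslink repair enzyme, also fell. Fbxo21 had -1.44 ± 0.40 (adjusted p = 0.0177), the change of Dixdc1 was a fitted -1.43 ± 0.44 (adjusted p = 0.0327), and Dclre1a showed -1.29 ± 0.42 (adjusted p = 0.0464). With each of the 9 arrays left out in turn, the calls of Ddah1, Tm4sf1, Egln3, Fgfrl1, Gmnn, Sult1c2 and Wfdc2 held each time. That of Cdt1 was lost without C10:0 replicate 5 or control replicate 4, that of Fbxo21 was lost without C10:0 replicate 1 or 5 or control replicate 1 (estimates of -1.65 to -1.21) and that of Dclre1a was lost without C10:0 replicate 1, 2 or 5 or control replicate 1, 2 or 4 (estimates of -1.49 to -1.06). That of Dixdc1 was lost without C10:0 replicate 1, 2, 4 or 5 or control replicate 1, 2 or 4 (estimates of -1.65 to -1.33).

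Genes that mark other liver cells were also read, since in whole liver fewer cells of a type and less RNA per cell cannot be told apart. Col3a1, a fibrillar collagen, measured 4.43, 3.67, 4.43, 4.86 and 4.73 after C10:0 and 5.23, 5.56, 7.72 and 9.91 in controls, a fitted change of -2.68 ± 0.78 (adjusted p = 0.0244). Every treated liver but replicate 4 was among the lowest signals of its array, and control replicates 3 and 4 stood above the other controls. Col3a1 was the 1 of 9 stellate cell and fibroblast markers to pass, while 8 of the 9 were lower (median -0.66). Their summed linear signal was 2207 to 3078 after C10:0 and 2247 to 5406 in controls. Ighm, the heavy chain of IgM, measured 3.76, 4.06, 3.90, 3.99 and 4.55 against 6.57, 4.61, 5.61 and 6.98, a fall of at least 2.18-fold (adjusted p = 0.0158). With Jchain it made up the measured B cell markers, summed at 18.04 to 30.1 and 34.7 to 179. None of the 12 Kupffer cell and macrophage markers passed (sums of 2257 to 2862 and 1929 to 3717, 3 markers among the lowest signals on all 9 arrays), nor did either neutrophil marker (12.4 to 118 and 10.5 to 129), 1 of 8 sinusoidal endothelial markers fell, and none of 8 hepatocyte markers passed (101500 to 106600 and 100600 to 106600). Neutrophils also express Lcn2. The part of these cells in the changes of Lcn2, Col3a1 and Ighm was not tested. When 1 array at a time was left out, the call of Col3a1 was lost without C10:0 replicate 1 or 2 or control replicate 3 or 4 (estimates of -3.31 to -1.75) and that of Ighm was lost without control replicate 1 or 4.

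Whether the response depended on PPARα was asked by testing the difference between the C10:0 changes of the genotypes. In WT liver 63 genes rose (0.947%) and 33 fell (0.496%). The difference itself passed for 2 of 11412 probesets (0.0175%), 168 had an unadjusted p under 0.01 and 669 one under 0.05. One was a probeset of Cyp4a31, a fatty acid hydroxylase. It rose in WT liver from 4.56 ± 1.57 (SD, n = 4) to 8.29 ± 0.74 (SD, n = 5). The difference passed (adjusted p = 0.049), but no size is given for it, since the probeset was among the lowest signals in both PPARα −/− groups. The other, a probeset with no gene symbol, was higher after C10:0 in PPARα −/− liver and lower in WT liver, with a difference of 1.93 ± 0.41 (adjusted p = 0.049). Ehhadh and Pdk4, textbook PPARα targets, rose in WT liver, and the difference passed for neither with all arrays. Ehhadh, a peroxisomal oxidation enzyme, rose by 1.38 ± 0.24 (adjusted p = 3.61e-04) in WT liver and had -0.16 ± 0.24 (adjusted p = 0.737) in PPARα −/− liver, a difference of -1.55 ± 0.34 (adjusted p = 0.0598). Pdk4, which turns off pyruvate oxidation, rose by 3.36 ± 0.65 (adjusted p = 0.00174) in WT liver, a difference of -3.56 ± 0.92 (adjusted p = 0.317). Of the fits that left out 1 WT array, added after seeing the data, only that without WT C10:0 replicate 3 had the difference pass. It passed there for both, at -1.84 (adjusted p = 0.0018) for Ehhadh and -4.20 (adjusted p = 0.0261) for Pdk4. In the other such fits it passed for neither, with an adjusted p of 0.0735 to 0.527 for Ehhadh and 0.179 to 0.658 for Pdk4. Acot1 rose in both genotypes, by 1.68 ± 0.35 (adjusted p = 0.00408) in WT liver. Leaving out 1 of the 18 arrays moved this count, which was 0 without PPARα −/− C10:0 replicate 1, PPARα −/− C10:0 replicate 3, PPARα −/− control replicate 2, PPARα −/− control replicate 3, WT C10:0 replicate 1, WT C10:0 replicate 2, WT C10:0 replicate 4, WT C10:0 replicate 5 and WT control replicate 1, 1 without PPARα −/− C10:0 replicate 2, PPARα −/− C10:0 replicate 4, PPARα −/− C10:0 replicate 5, PPARα −/− control replicate 1 and WT control replicate 2, 2 without WT control replicate 3 and WT control replicate 4, 3 without PPARα −/− control replicate 4 and 7 without WT C10:0 replicate 3.

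Of the 26 acute phase genes, 10 rose in PPARα −/− liver and none passed in WT liver, where the median change was -0.09, but the genotype difference did not pass for any of the 26. The WT controls were far apart here. The WT controls measured 14.25, 9.72, 9.34 and 12.29 for Saa1, 14.55, 7.49, 6.97 and 10.47 for Saa2 and 12.38, 3.76, 4.23 and 8.59 for Lcn2. Replicates 2 and 3 were the lowest of each, replicate 4 lay between, and replicate 1 was the highest. Without it, an alternative chosen after seeing the data, the WT change was 2.50 (adjusted p = 0.0624) for Saa1, 3.00 (adjusted p = 0.1) for Saa2 and 3.23 (adjusted p = 0.118) for Lcn2, the genotype differences were -0.34, 0.33 and 0.12 in place of 0.61, 1.89 and 1.84, and the median WT change of the list was 0.15, with 16 of 26 members higher and none passing. The WT changes of Lbp and Crp became 0.17 (adjusted p = 0.888) and 0.25 (adjusted p = 0.478), both above 0. Leaving out a low WT control moved the values the other way. The genotype differences of Saa1, Saa2 and Lcn2 were then 1.175, 2.685 and 2.995 without WT control replicate 2. They were 1.30, 2.86 and 2.84 without WT control replicate 3. In each of these fits 2 of the 26 members fell in WT liver, and the genotype difference passed for none. The glucocorticoid targets had a median of 1.11 in WT liver, where 1 of 13 rose. Lbp had a change of -0.25 ± 0.30 (adjusted p = 0.78) in WT liver and a difference of 1.48 (95% interval 0.63 to 2.34, adjusted p = 0.427), Crp one of -0.02 ± 0.15 (adjusted p = 0.977) and a difference of 0.67 (95% interval 0.24 to 1.10, adjusted p = 0.523), and Saa1 one of 1.55 ± 0.70 (adjusted p = 0.304) and a difference of 0.61 (95% interval -1.37 to 2.60, adjusted p = 0.983). Fkbp5 rose in both genotypes, by 1.55 ± 0.38 (adjusted p = 0.019) in WT liver, and the difference was 0.80 (95% interval -0.27 to 1.87, adjusted p = 0.92). Its WT call was lost without WT C10:0 replicate 2 or 5 or WT control replicate 2 or 3, with changes of 1.51 (adjusted p = 0.054), 1.35 (adjusted p = 0.106), 1.29 (adjusted p = 0.106) and 1.48 (adjusted p = 0.0514). Cyp2b10 rose by at least 4.03-fold in WT liver (adjusted p = 0.0417). Its controls were among the lowest signals in both genotypes, so no size is given for the difference, which did not pass (adjusted p = 0.851). For Ddah1 the WT change was -0.69 ± 0.41 (adjusted p = 0.458) and the difference -1.90 (95% interval -3.05 to -0.75, adjusted p = 0.432). For Srebf1 they were -0.51 ± 0.41 (adjusted p = 0.626) and -1.47 (95% interval -2.61 to -0.32, adjusted p = 0.725), and for Irs1 -0.01 ± 0.28 (adjusted p = 0.991) and -1.04 (95% interval -1.82 to -0.26, adjusted p = 0.677). The intervals are those of single probesets. They include 0 for Saa1 and Fkbp5 and exclude it for Lbp, Crp, Ddah1, Srebf1 and Irs1, but none of these differences passed once p was adjusted over all probesets. These data thus settle neither a like nor an unlike response of the genotypes for these genes.

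**Figure D4:**
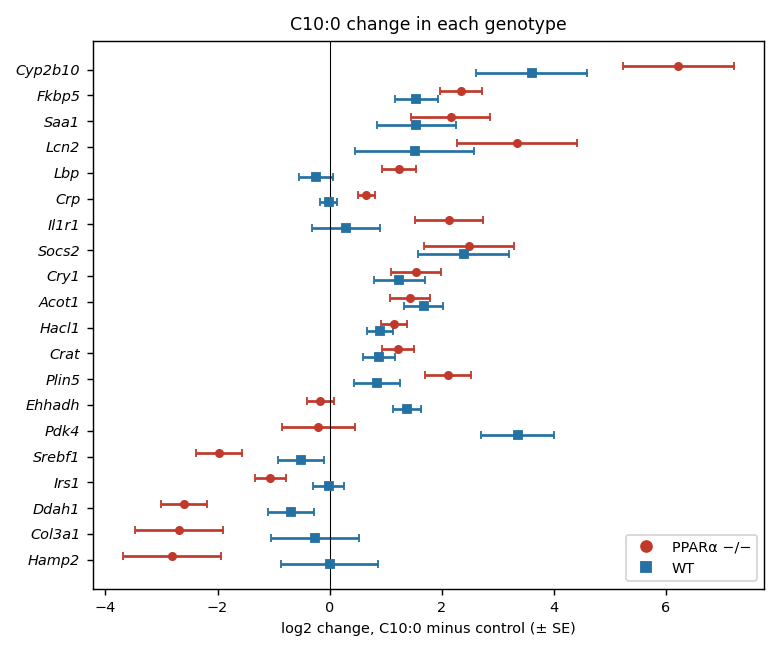
Log2 change with C10:0 against the control of the same genotype (x axis, bars are the SE) for 20 genes in PPARα −/− (red circles) and WT liver (blue squares). Ehhadh and Pdk4 lie near 0 in PPARα −/− and at 1.38 and 3.36 in WT liver. For none of the 20 genes did the difference between genotypes pass the test with all arrays. The points of Cyp2b10, whose controls were among the lowest signals, are fitted values and not measured sizes. So are those of Plin5 and Col3a1 in PPARα −/− liver, where a group was mostly among the lowest signals.

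C10:0 was finally set against the other triglycerides of the same run in PPARα −/− liver, C18:2 (trilinolein) and C18:3 (trilinolenin), each in 5 mice at the same volume and time. C10:0 has 10 carbons and no double bond, and the others 18 carbons with 2 and 3 double bonds. A volume of 400 µl holds a different number of fatty acid molecules for each. These were 2 pairs, with p adjusted over the probesets of each pair. C10:0 and C18:2 differed for 2 probesets (0.0175%), both higher with C10:0, with 305 at an unadjusted p under 0.01. Caap1, an inhibitor of caspase activation, was higher by 0.89 ± 0.18 (adjusted p = 0.0181), and one of the probesets of Cab39l, a partner of the kinase LKB1, by 0.54 ± 0.087 (adjusted p = 2.95e-04), while the brightest probeset of Cab39l had 0.13 (95% interval -0.27 to 0.53, adjusted p = 0.874). Caap1 measured 5.19, 5.75, 5.89, 5.51 and 5.59 after C10:0 and 3.70, 4.65, 4.53 and 4.56 in controls, a rise of at least 1.6-fold over control (adjusted p = 2.96e-05). The rise over control held in all 9 fits that left out 1 array. The count of 2 probesets was 1 without PPARα −/− C10:0 replicate 2, PPARα −/− C10:0 replicate 5 and PPARα −/− C18:2 replicate 3 and 4 without PPARα −/− C10:0 replicate 4, and 2 without each of the others.

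C10:0 and C18:3 differed for 113 probesets (0.990%), 29 higher and 84 lower with C10:0, and 701 had an unadjusted p under 0.01. With each array centred on its median, 65 passed and the split was 34 higher and 31 lower, so the direction of the majority depended on the scaling. This count also rested on single livers. It was 2 without C10:0 replicate 3, 6 without C18:3 replicate 2 and 2 without C18:3 replicate 5, and 345 without C18:3 replicate 1, and it was 50, 84, 137 and 21 without C10:0 replicates 1, 2, 4 and 5 and 106 and 50 without C18:3 replicates 3 and 4. Cyp2c39, a cytochrome P450, was higher with C10:0 by 1.93 ± 0.45 (adjusted p = 0.0258), with signals of 8.16, 8.23, 7.97, 7.13 and 8.20 against 4.79 to 7.74 after C18:3 and 7.53, 5.85, 6.82 and 8.11 in controls. Ctla2a, a cysteine protease inhibitor, was higher by 1.35 ± 0.34 (adjusted p = 0.0394) and the transcription factor Sall1 by 0.84 ± 0.22 (adjusted p = 0.0436), and Caap1 by 0.71 ± 0.18 (adjusted p = 0.034). Ctla2a also rose against control by 1.55 ± 0.36 (adjusted p = 0.00492) and Sall1 by 1.00 ± 0.24 (adjusted p = 0.00568), both in all 9 fits that left out 1 array. Against C18:3 the calls were less steady. Without C10:0 replicate 3 no probeset passed as higher with C10:0, so those of Cyp2c39, Ctla2a, Sall1 and Caap1 were lost. Without C18:3 replicate 2 or replicate 5, only 1 probeset passed as higher with C10:0. Haem oxygenase 1 (Hmox1) was lower with C10:0 than with C18:3, a difference of -2.24 ± 0.55 (adjusted p = 0.034). It measured 5.12, 4.42, 4.04, 6.22 and 5.32 against 6.23 to 9.42 after C18:3, and its controls ran from 4.07 to 4.84. Ppp1r3g, which targets a phosphatase to glycogen, measured 1.84, 1.69, 1.99, 6.29 and 3.46 against 5.00 to 8.66 after C18:3, a fitted difference of -4.04 ± 1.11 (adjusted p = 0.0499). Its controls ran from 2.42 to 8.69, and every C10:0 liver but replicate 4 was among the lowest signals of its array.

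Caap1, which had the smallest adjusted p against control of the genes named, thus passed against both long-chain triglycerides with all arrays. Its call against C18:3 was lost without C10:0 replicate 3, where no probeset passed as higher with C10:0. With only the groups compared, no probeset passed against C18:2. Cyp2b10, Fkbp5 and Hacl1 passed against neither triglyceride with all arrays. The C10:0 minus C18:3 difference was 0.89 (95% interval -0.97 to 2.76, adjusted p = 0.695) for Cyp2b10, 0.47 (95% interval -0.24 to 1.19, adjusted p = 0.559) for Fkbp5, 1.10 (95% interval -0.22 to 2.42, adjusted p = 0.428) for Saa1, 2.58 (95% interval 0.78 to 4.37, adjusted p = 0.127) for Saa2, 2.62 (95% interval 0.61 to 4.62, adjusted p = 0.168) for Lcn2, -0.0032 (95% interval -0.66 to 0.65, adjusted p = 0.997) for Acot1, 0.04 (95% interval -0.40 to 0.48, adjusted p = 0.958) for Hacl1 and 0.81 (95% interval 0.04 to 1.57, adjusted p = 0.289) for Srebf1. Against C18:2 it was 2.04 (95% interval 0.25 to 3.83, adjusted p = 0.433) for Saa2, 2.05 (95% interval 0.04 to 4.05, adjusted p = 0.488) for Lcn2, 2.70 (95% interval 0.84 to 4.57, adjusted p = 0.306) for Cyp2b10, 0.74 (95% interval 0.03 to 1.46, adjusted p = 0.478) for Fkbp5 and 0.06 (95% interval -0.38 to 0.50, adjusted p = 0.958) for Hacl1. The comparisons of the 3 triglycerides with control share the same 4 control livers. Against these, Hacl1 rose by 1.15 ± 0.23 (adjusted p = 0.00114) after C10:0. Its rise was 1.09 ± 0.23 (adjusted p = 0.0241) after C18:2, while C18:3 gave 1.11 ± 0.23 (adjusted p = 0.00115). The corresponding rise of Fkbp5 was 2.35 ± 0.38 (adjusted p = 5.18e-05) after C10:0. After C18:2 it came to 1.61 ± 0.38 (adjusted p = 0.0442), and C18:3 gave 1.88 ± 0.38 (adjusted p = 8.49e-04).

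**Figure D5:**
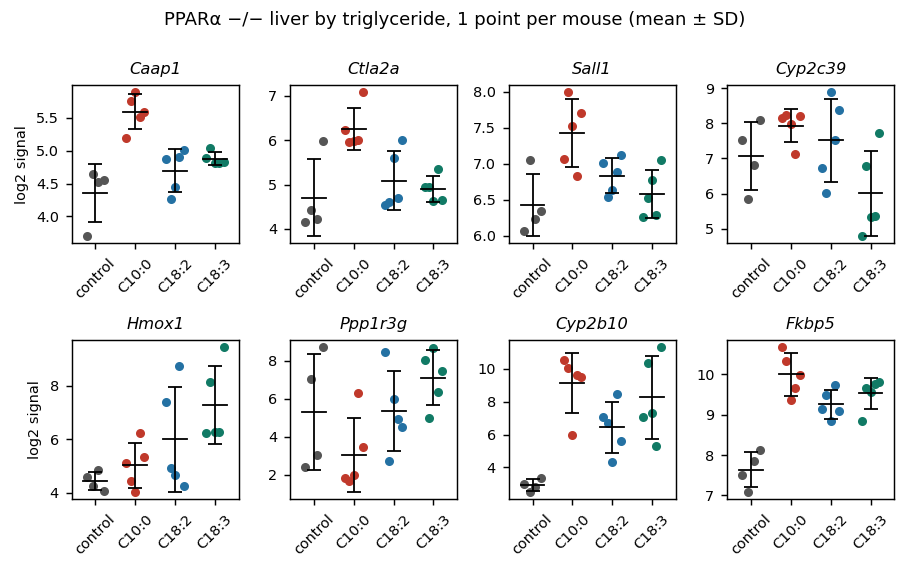
Log2 signal (y axis, a scale for each gene) of 8 genes in PPARα −/− liver after vehicle (grey, n = 4), C10:0 (red), C18:2 (blue) and C18:3 (green, n = 5 each), 1 point per mouse, with mean and SD. Caap1 lies above both other triglycerides after C10:0, Hmox1 and Ppp1r3g have their highest mean after C18:3, and Cyp2b10 and Fkbp5 are above the controls after all 3.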

How the data were processed

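Liver RNA was hybridised to 93 one-colour Affymetrix arrays, 1 per mouse, in 20 groups taken from the sample titles. The authors deposited linear signal intensity for 11463 probesets, made with GCRMA (2.20 in the submitters' processing notes), quartile normalization and a filter on the interquartile range. Scanner files were not used here. From these intensities log2 values were taken, 51 control probesets were removed and 11412 were tested. Of these, 10279 carried 1 gene symbol, 406 several and 727 none, and a gene was read at its brightest probeset (6654 genes). limma 3.58.1 in R 4.3.3 (with data.table at version 1.17.8) fitted 1 mean per group over all 93 arrays, with Benjamini-Hochberg adjustment over all probesets and a threshold of 0.05. The step was tested on simulated data. Precision is limited by how many arrays each group has. The p-values rest on the spread between mice within groups, pooled over all 20 groups and not taken from the compared mice alone.

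A group whose arrays all lay under the 10th percentile of their own array is called among the lowest signals. A size against a group with most of its arrays there is a fitted value and not a measured size. The genes named were the 15 largest rises and 15 largest falls without overlap, up to 2 extremes each way of each gene list (some left out), and a fixed set of PPARα and lipid genes. Sult1d1, Saa4, Hp, Crp, Fgb, Serpina3n, Lbp, Creb3l3, Bdh1, Acaca, Elovl5, Sesn3, Slc39a14, Cab39l, Cyp3a11, Cyp2c29, Nr1i3, Tsc22d3, Tat, Pck1, Ciart and Tef were added after their values were seen. The comparison, its members and the gene lists were chosen with earlier results of these data known. Alternatives were other interquartile range and signal filters, median centring, quantile normalization, an intensity trend, array weights, only the later-run arrays, only the groups compared, a replicate block, any probeset of a gene and each array left out in turn, with the WT arrays for single genes added after seeing the data. Promoters came from RefSeq (GRCm38.p6).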

Additional observations from a re-analysis of the deposited data

Results flagged for a closer look

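Within the C10:0 and control groups, 16 of 149 gene and group combinations had 1 liver that stood apart from the others by Dixon's criterion, which flags about 1 in 20 by chance. The liver was low on the log2 scale for Cyp2b10 in C10:0 replicate 3, at 5.95 with the nearest liver at 9.50, Cyp3a13 in control replicate 3, at 10.28 with the nearest liver at 11.07, Saa2 in C10:0 replicate 4, at 11.70 with the nearest liver at 13.71 and Scd1 in control replicate 4, at 12.92 with the nearest liver at 13.51. It was also low for Ppara in C10:0 replicate 1, at 9.83 with the nearest liver at 10.41, Hamp2 in C10:0 replicate 5, at 3.13 with the nearest liver at 9.82, Sult1c2 in control replicate 3, at 4.91 with the nearest liver at 5.80 and Scara5 in C10:0 replicate 3, at 7.27 with the nearest liver at 9.10. Further low values were those of Scara5 in control replicate 2, at 6.17 with the nearest liver at 6.72 and Cyp2c39 in C10:0 replicate 4, at 7.13 with the nearest liver at 7.97. The liver was high for Socs2 in C10:0 replicate 5, at 10.05 with the nearest liver at 8.30, Fasn in control replicate 3, at 10.54 with the nearest liver at 8.44, Gpam in control replicate 3, at 10.80 with the nearest liver at 10.01, Dixdc1 in C10:0 replicate 3, at 4.85 with the nearest liver at 3.90, Ctla2a in C10:0 replicate 5, at 7.09 with the nearest liver at 6.23 and Ctla2a in control replicate 4, at 5.99 with the nearest liver at 4.43. The difference between the C10:0 changes of the genotypes passed the test for a probeset of Cyp4a31, at a fitted -3.27 that rests on PPARα −/− signals among the lowest of their arrays, and for a probeset with no gene symbol, at 1.93 (log2, PPARα −/− minus WT).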

How the results depend on the processing

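The 753 probesets changed with C10:0 stayed within 1.5 times under other interquartile range and signal filters, median centring, quantile normalization, an intensity trend, array weights and the later-run arrays alone (511 to 910), but fell to 138 with only the 9 arrays in the fit and were 452 with a fold of at least 1.5, and ran from 382 to 1024 with 1 array left out. The share of higher calls was 48.7%, 58.4% with median centring and 37.2% without control replicate 4. Of the 69 changed genes that are named, 22 passed with only the 9 arrays and 42 to 68 with 1 array left out. Of 72 list members changed, 12 and 34 to 82 did so. The 2 probesets that differed between genotypes became 0 with quantile normalization, array weights, the later-run arrays or only the groups compared, with 580, 819, 716 and 566 at an unadjusted p under 0.05 by limma, 4 with an intensity trend, and 0 to 7 with 1 array left out. The 2 that differed between C10:0 and C18:2 became 1 with quantile normalization, 31 with array weights, 4 with the later-run arrays, 0 with only the groups compared (1070 at an unadjusted p under 0.05 by limma) and 1 to 4 with 1 array left out. The 113 that differed between C10:0 and C18:3 became 65 with median centring, 28 with quantile normalization, 385 with array weights, 49 with the later-run arrays, 3 with only the groups compared and 2 to 345 with 1 array left out. The cause was not tested. Replicate numbers were shared between groups. Same-numbered C10:0 and control livers of PPARα −/− mice correlated at -0.416 to 0.29, and differently numbered ones at -0.344 to 0.408. So few correlations cannot tell whether same-numbered livers share anything beyond the number. With the number as a replicate block in a fit of only the groups compared, 5 probesets passed in place of 138, 1 named gene, 0 list members, and 0 probesets for the genotype difference, C18:2 and C18:3 (629, 1042 and 1384 at an unadjusted p under 0.05 by limma). No change of a named gene with C10:0 in PPARα −/− liver reversed. With a WT array left out, an alternative added after seeing the data, the genotype difference of Saa1 (0.61) ran from -0.34 to 1.30 and was below 0 without WT control replicate 1, the WT change of Lbp (-0.25) ran from -0.53 to 0.17 and was above 0 without that liver, and the WT change of Crp (-0.017) ran from -0.16 to 0.25 and was above 0 without that liver and, at 0.039, without WT C10:0 replicate 1. Signals near the bottom of an array limit folds to bounds.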
